A study of Equus asinus with 2 samples.

Results

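Fetal Leydig-like cells were described in single-cell RNA libraries of the fetal donkey (Equus asinus). These are steroid-producing cells that lie between the cords of the developing testis. They were picked out by 3 measured values, so the levels of those 3 genes are a description and not a finding. A cell barcode was a member when it held at least 2 UMIs of STAR and at least 2 STAR UMIs per 10000, at least 5 FDX1 UMIs per 10000, and fewer than 10 AMH UMIs per 10000. A UMI is a unique molecular identifier, which stands for 1 captured RNA molecule. Of 21629 barcodes with at least 1000 UMIs, 417 met the rule. They were 151 of 8457 barcodes at 4 weeks of gestation (1.79%, 1.51 to 2.09) and 266 of 13172 at 8 weeks (2.02%, 1.79 to 2.27). The ranges are exact Clopper-Pearson intervals at 95%, which cover counting error only.

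The study sampled fetuses of slaughtered donkeys at 2 stages of early pregnancy, with 1 library at each stage. The 4-week library came from gonad together with mesonephros, the transient embryonic kidney, and the 8-week library from tissue labelled ovary. No treatment, genotype or fetal sex is given, the cell type field names germ cells for both, and the number of fetuses pooled in a library is not stated. Barcodes with the Sertoli genes AMH and SOX9 (at least 10 AMH UMIs per 10000 and at least 2 SOX9 UMIs) were found in both, 655 at 4 weeks and 746 in the library labelled ovary. Stage, dissected tissue and library cannot be told apart, and no test between stages was possible.

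In a fetal Leydig cell, cholesterol is taken up or made, STAR moves it into the mitochondrion, and CYP11A1 cuts its side chain with electrons passed from FDXR through FDX1. CYP17A1 then makes androgen precursors with POR and CYB5A as partners, and the fetal testis uses the androgen to masculinise the tract. The peptide hormone INSL3, also from Leydig cells, drives the first phase of testis descent. Theca cells of the ovary and the adrenal cortex share much of this enzyme set.

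The Leydig-like barcodes were deep. Their median was 23859 UMIs and 5587 genes at 4 weeks, and 24531.5 UMIs and 5388.5 genes at 8 weeks. All other barcodes had medians of 8139.5 and 6519.5 UMIs. Single members ranged from 1721 to 94597 UMIs at 4 weeks and from 1103 to 92073 at 8 weeks, and in sum they gave 3650184 and 7091404 UMIs. The libraries shared 38 barcode sequences, 1 of them a member at 4 weeks and 1 a member at 8 weeks. No doublet caller was run here. Levels below are UMIs summed over barcodes per 1000000 UMIs (CPM), with exact Poisson intervals at 95%, and shares and intervals say nothing of the spread between animals.

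Of the 5 markers that go with the name, INSL3, LHCGR and INHA were not used by the rule. LHCGR, the receptor for luteinising hormone, stood at 569 CPM (545 to 594) in members and 5.38 CPM in all other barcodes at 4 weeks. At 8 weeks it stood at 545 CPM (528 to 562) against 15.4. INHA, the inhibin alpha subunit, stood at 1002 and 1029 CPM against 26.1 and 31.6, and INSL3 at 157 and 3160 CPM against 0.177 and 37.7. All 3 were thus higher in members than in the rest at both stages. STAR, used by the rule, stood at 2588 and 1512 CPM in members and 5.91 and 10.6 CPM elsewhere. FDX1, also used, stood at 3507 and 3455 CPM against 94.0 and 124. NR5A1 and HSD3B1, which belong to the same list, were not analysed here.

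The adrenal cortex was checked with 3 markers of its own, the only ones of 6 listed that were found by symbol. MC2R, the receptor for adrenocorticotropic hormone, stood at 12.9 CPM (47 UMIs) at 4 weeks and 6.49 CPM (46 UMIs) at 8 weeks in members, against 0.963 and 0.925 elsewhere. CYP21A2, the adrenal 21-hydroxylase, had 0 UMIs at 4 weeks, and the summed list, with MRAP, reached 13.4 and 6.91 CPM. In the rest this sum was 0.989 and 0.953 CPM, so it was low but higher in the members. Markers of other cell types in the members, summed over each list, gave 331 and 861 CPM for stroma (905 and 3689 in the rest). They gave 141 and 130 CPM for Sertoli cells (637 and 691), 70.7 and 26.4 for germ cells (203 and 174) and 73.7 and 15.8 for endothelium (561 and 159). Erythroid markers gave 111 and 4.23 CPM (294 and 32.0), and kidney tubule markers 63.0 and 16.9 (518 and 46.1). All 7 stroma markers had UMIs in the members of both libraries. Apart from the adrenal sum, each of these sums for other cell types was lower in the members than in the rest, but the rest holds those cell types. Against barcodes gated as endothelial, macrophage, Sertoli and stroma, the 4-week erythroid sum was higher in the members (25.6, 19.2, 17.3 and 37.3 CPM in the gates). At 8 weeks the members exceeded only the Sertoli gate (6.06, 6.24, 2.99 and 8.74 CPM). Whether the members' UMIs of other cell types come from free RNA or from cells caught together was not tested.

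The 15 genes that set the members furthest apart from the rest in both libraries together included STAR, CYP17A1, CITED1, TM7SF2, FDX1, INHA, FABP3, MSMO1, LHCGR, CYP11A1, PLA2G1B, LRCOL1, INSL3 and TSGA10IP. A further feature had only a locus identifier. CYP17A1 and CYP11A1 are the steroid enzymes among them, and TM7SF2 and MSMO1 make cholesterol. CITED1, a transcriptional coactivator partner, stood at 2372 and 3354 CPM against 36.0 and 37.7 in the rest. FABP3, a fatty acid carrier, stood at 1674 and 1509 CPM against 58.0 and 47.8, and PLA2G1B, a secreted phospholipase, at 614 and 636 against 12.4 and 22.1. Over all genes, 11.2% of 24699 tested at 4 weeks and 9.23% of 24258 at 8 weeks were at least 2-fold higher in members than in the rest. The rule chose the members on these same counts, so nothing is read from those shares.

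CYP17A1, which was not used by the rule, was found in 100% of members at 4 weeks and 99.6% at 8 weeks after thinning to 5000 UMIs. It was also found in 88.2% and 93.1% of thinned Sertoli barcodes (median depths before thinning 21513 and 23903 UMIs). From Sertoli barcodes its level more than its presence set the members apart. In thinned endothelial barcodes (13452 and 11538.5) the shares were 9.28% and 22.1%, and in all other barcodes 19.0% and 33.1%. In level CYP17A1 stood at 14647 CPM (14523 to 14772) at 4 weeks and 13724 CPM (13638 to 13810) at 8 weeks. That compares with 122 and 251 CPM in the rest and 611 and 996 CPM in Sertoli barcodes. A gate on CYP17A1 in place of STAR and FDX1 (at least 10 per 10000 and 2 UMIs, same AMH limit) held 98.0% of members at 4 weeks and 97.0% at 8 weeks. In the other direction the overlap was unequal. Members were 79.6% of the 186 CYP17A1-gated barcodes at 4 weeks but 55.5% of the 465 at 8 weeks. At 8 weeks 207 CYP17A1-gated barcodes were therefore outside the STAR rule, 196 of them for STAR, and 96 of these had no STAR UMI at all. At 4 weeks there were 38.

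These CYP17A1-positive barcodes outside the rule held lower levels of the same genes. Their CYP17A1 stood at 3010 CPM at 4 weeks and 1944 at 8 weeks, their LHCGR at 229 and 212, and their INSL3 at 14.1 (5.65 to 29.0) and 647 (620 to 674). DLK1, a membrane protein of the fetal Leydig lineage and of stroma, stood at 1389 and 2474 CPM in them against 2870 and 3251 in the members. Stroma markers summed to 930 and 2241 CPM, above the 331 and 861 of the members. Their median depth was 10546 and 12385 UMIs, below that of the members.

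At the edge of the rule the 4-week values rest on few barcodes, so no difference between the stages is read there. At 8 weeks 29 members lay just inside the STAR limit, from 2 to 3 per 10000, with 3556 CPM of CYP17A1 and 1936 of INSL3. Just outside, from 1 to 2 per 10000, lay 47 barcodes that met the rest of the rule, with 1928 and 980 CPM. At 4 weeks 1 member lay just inside, with 89.6 CPM of CYP17A1, and 8 barcodes just outside, with 1620 CPM. At the FDX1 limit, 20 members at 8 weeks lay from 5 to 8 per 10000, with 3476 CPM of CYP17A1, and 5 barcodes from 3 to 5, with 2635 CPM. At 4 weeks the 4 members inside held 1810 CPM of CYP17A1 and no INSL3 UMI, and the 6 barcodes outside 4773 CPM and 24.1 CPM of INSL3. The AMH limit removed 3 barcodes at 4 weeks and 5 at 8 weeks.

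**Figure D1:**
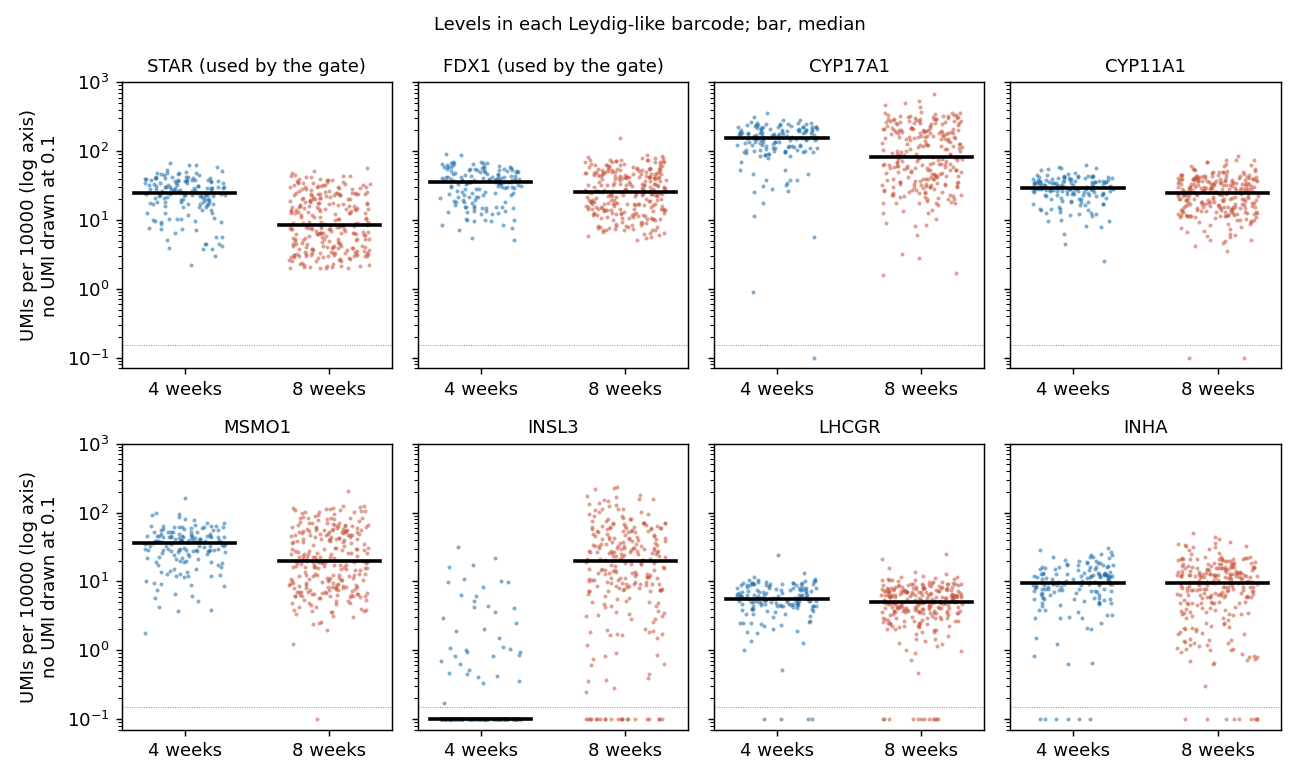
Each point is 1 Leydig-like barcode (151 at 4 weeks, 266 at 8 weeks), the vertical log axis is UMIs of the gene per 10000 UMIs, and black bars are medians. On this log axis STAR and CYP17A1 spread further at 8 weeks, LHCGR and INHA have close medians at both stages, and INSL3 has a median of 0 at 4 weeks and 19.6 at 8 weeks.

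Levels in single members were lower at 8 weeks for STAR and reached further down for CYP17A1. STAR, used by the rule, had per 10000 UMIs a median of 24.9 at 4 weeks, with the middle 50% of members from 16.7 to 36.2, and a median of 8.48 at 8 weeks, from 4.09 to 20.6. CYP17A1 had a median of 155 (105 to 199) at 4 weeks and 83.4 (37.7 to 195) at 8 weeks. The upper quartiles of CYP17A1 were thus alike while the 8-week median was lower. LHCGR had medians of 5.63 and 5.07, INHA 9.46 and 9.40, and CYP11A1 29.1 and 24.6. For each of these genes the members of the 2 libraries overlapped over most of their range, as the plot of single barcodes shows.

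The libraries were then compared over the summed members. INSL3 was 20.1-fold higher at 8 weeks (18.5 to 21.9, exact conditional binomial interval). STAR, used by the rule, was 1.71-fold lower (1.66 to 1.76). CYP17A1, CYP11A1, LHCGR and INHA were close to equal. The ratio of 8 over 4 weeks was 0.937 (0.927 to 0.947) for CYP17A1, 0.950 (0.928 to 0.973) for CYP11A1, 0.958 (0.908 to 1.01) for LHCGR and 1.03 (0.988 to 1.07) for INHA. With every member given the same weight, the ratios were 0.524 for STAR, 0.841 for CYP17A1, 0.914 for CYP11A1 and 26.2 for INSL3.

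Among 15721 genes with at least 10 UMIs, 960 (6.11%) were at least 2-fold higher at 8 weeks and 1730 (11.0%) at least 2-fold lower. Of all genes past 2-fold, 35.7% were higher. Over 5516 genes with at least 100 UMIs in both libraries the median log2 ratio was −0.20, and with this set to 0 the counts were 1411 higher and 1254 lower, or 52.9% higher. Under that scaling the log2 ratio was 0.10 for CYP17A1, 0.12 for CYP11A1 and 0.14 for LHCGR, so no direction is read for these 3.

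**Figure D2:**
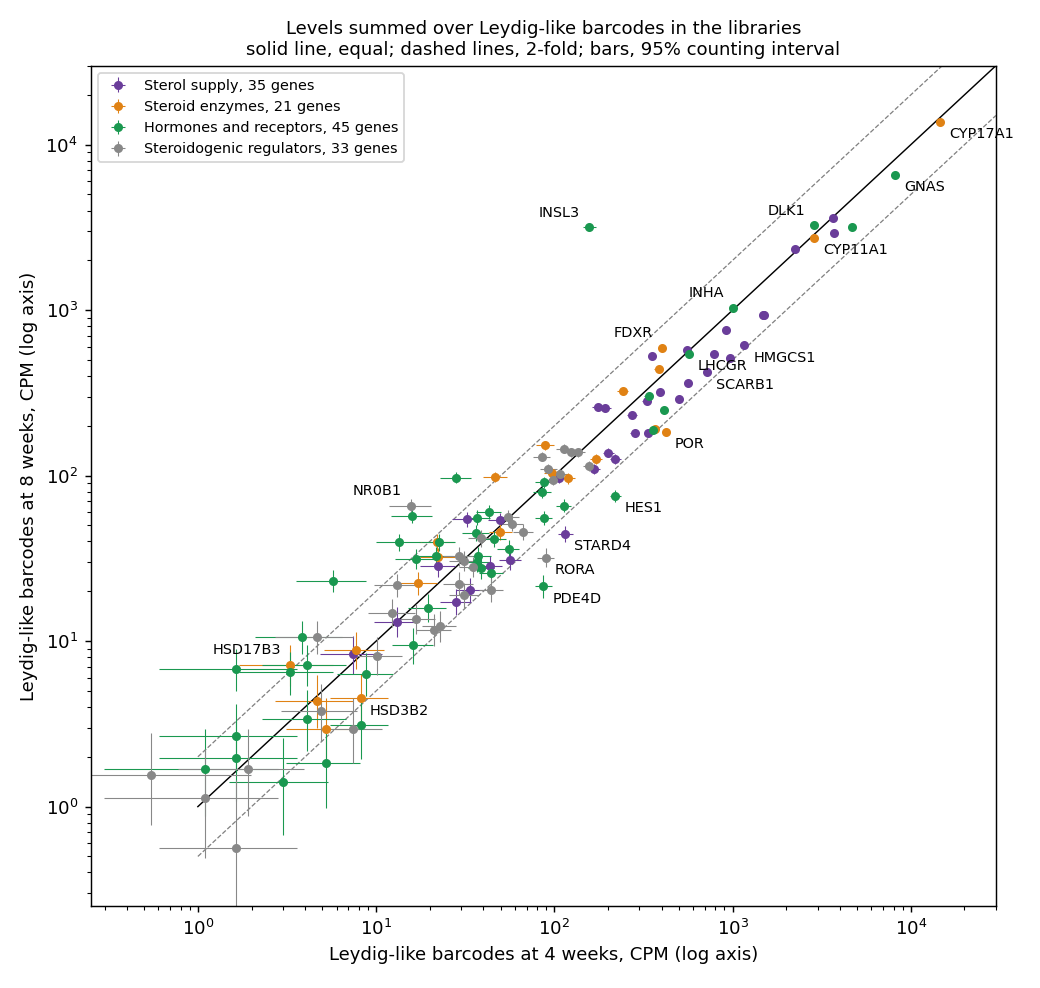
Each point is a gene of 4 lists, with its level in the summed Leydig-like barcodes at 4 weeks on the horizontal and at 8 weeks on the vertical log axis (CPM, bars are 95% counting intervals). INSL3 lies 20.1-fold above the line of equality while CYP17A1, CYP11A1, LHCGR and INHA lie on or near it, and most sterol genes lie below it.

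INSL3 had the highest ratio of all named genes with at least 100 CPM and at least 4-fold above the other barcodes. Of the 12 highest features of this kind, 5 had only a locus identifier and are not ranked here. At 4 weeks 26.5% of members (19.6 to 34.3) held an INSL3 UMI and at 8 weeks 91.7% (87.7 to 94.7). With each member thinned to 5000 UMIs, which left out 11 and 19 shallower members, the shares were 17.1% (11.3 to 24.4) and 88.3% (83.6 to 92.0). The highest 4-week member reached 31.6 per 10000, above the 8-week median of 19.6 and below the 8-week maximum of 231. The groups therefore overlapped.

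Free RNA can place UMIs in cells that do not make a gene, and its share was read from cells that should lack INSL3. In thinned endothelial barcodes (at least 2 UMIs each of PECAM1 and CDH5; median depths before thinning 13452 and 11538.5 UMIs) INSL3 was found in 0 of 905 at 4 weeks, which allows a share of up to 0.331%, and in 1.94% (0.632 to 4.46) at 8 weeks. In macrophage barcodes (median depths 6278 and 5671) it was found in 0 of 87, which allows up to 3.45%, and in 5.16% (3.40 to 7.47). Both 8-week background shares lay far below the 88.3% of the members. In level, the 8-week background was 11.96 CPM in endothelium and 32.5 in macrophages. Outside the members INSL3 was also higher at 8 weeks, by 212-fold from 0.177 CPM. JAK3, whose gene lies beside INSL3 in mammals, stood at 3.01 and 4.65 CPM in members, and whether counting used strand is not stated.

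The sterol supply list covers cholesterol uptake, synthesis and transport. Of its 35 genes, 0 were at least 2-fold higher at 8 weeks and 1 at least 2-fold lower, or 0% and 2.86% beside 6.11% and 11.0% over all genes, with a median log2 ratio of −0.53 against −0.16 over all genes tested. Of the 35, 26 had ratios below 1, and 23 lay below the median ratio of the libraries. In all other barcodes the median of the same list was −0.07. In single members weighted equally the list's median was −0.36.

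SCARB1 and STARD4, of uptake and transport, were lower at 8 weeks. SCARB1, the receptor for high-density lipoprotein, was 1.72-fold lower (1.63 to 1.81), with 722 CPM at 4 weeks and 421 at 8 weeks. STARD4, a cytosolic sterol carrier, was 2.58-fold lower (2.23 to 2.99), with 115 and 44.7 CPM, and was the 1 gene of the list past 2-fold. In the other barcodes STARD4 had a ratio of 0.346.

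Synthesis genes differed by step. HMGCS1, which starts the mevalonate pathway, was 1.90-fold lower (1.82 to 1.98), with 1162 and 613 CPM. DHCR7, which makes cholesterol in a last step, was 1.88-fold lower (1.80 to 1.97), with 969 and 515 CPM, and CYP51A1, a demethylase of lanosterol, 1.59-fold lower, with 1477 and 932 CPM. By contrast, over the summed members MSMO1, a sterol methyl oxidase, had a ratio of 0.986 (0.965 to 1.01). FDPS, which makes farnesyl diphosphate, had 1.04 (1.02 to 1.07) and EBP, a sterol isomerase, 1.03 (0.977 to 1.09). With every member given the same weight, these ratios were 0.886, 0.941 and 0.981. In single members the median of MSMO1 per 10000 UMIs was 36.6 at 4 weeks and 19.8 at 8 weeks. MSMO1 was thus close to equal in the sum but lower at 8 weeks in the median. ACLY and ACSS2, which supply cytosolic acetyl-CoA and are not on the list, were 2.12-fold and 2.11-fold lower. In other barcodes HMGCS1 and DHCR7 had ratios of 0.786 and 0.888.

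The steroid enzyme list had 21 genes tested, 2 at least 2-fold higher, 1 lower and a median log2 ratio of 0.09. Those are 9.52% and 4.76%, beside 6.11% and 11.0% over all genes. POR, the reductase that feeds electrons to CYP17A1, stood at 423 CPM (402 to 445) at 4 weeks and 184 (174 to 194) at 8 weeks, 2.30-fold lower (2.14 to 2.48). FDXR, which feeds electrons toward CYP11A1, was 1.47-fold higher (1.39 to 1.56), at 401 and 591 CPM. CYB5A, the helper of the CYP17A1 lyase step, was 1.35-fold higher (1.25 to 1.46), at 241 and 326 CPM. The redox partners of the pathway therefore differed in opposite directions. Outside the members POR and FDXR had the same directions, with ratios of 0.687 and 1.57. The genes past 2-fold upward, HSD17B3 and CYP1B1, stood at 3.29 and 7.19 CPM and at 46.6 and 98.3 CPM.

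The last step to testosterone was scarce in the members. HSD17B3, which reduces androstenedione in the testis, was lower in them than in the rest, where it stood at 30.5 and 28.2 CPM. With barcodes thinned, it was found in 0 of 140 members at 4 weeks, which allows up to 2.14%, and in 4.86% (2.54 to 8.33) at 8 weeks, against 61.3% and 53.1% of the Sertoli barcodes. The endothelial shares of 1.99% and 1.55% show its background. Other family members were present. HSD17B12 stood at 365 and 191 CPM, 1.92-fold lower, and HSD17B7, which also serves cholesterol synthesis, at 171 and 126 CPM, 1.35-fold lower (1.22 to 1.50). HSD3B2, a 3-beta-hydroxysteroid dehydrogenase, stood at 8.22 and 4.51 CPM in members and at 66.6 and 29.6 in the rest. CYP19A1, the aromatase, had 0 UMIs at 4 weeks and 1 at 8 weeks.

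Of 33 regulators tested, 3 were at least 2-fold higher at 8 weeks and 4 lower, or 9.09% and 12.1% beside 6.11% and 11.0% over all genes, with a median log2 ratio of −0.07. GATA4, which acts on steroidogenic promoters, stood at 136 and 138 CPM. NR0B1, a repressor of steroidogenic genes, was among the higher ones, at 15.6 and 65.7 CPM, but in the other barcodes it stood at 45.8 and 336 CPM. NR0B2, a related repressor, stood at 29.0 and 32.6 CPM against 2.37 and 4.44 in the rest. RORA, a nuclear receptor, was 2.81-fold lower, from 89.9 to 32.0 CPM, and WT1 stood at 44.1 and 20.4 CPM.

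Of 45 hormone and receptor genes tested, 7 were at least 2-fold higher at 8 weeks and 5 lower, or 15.6% and 11.1% beside 6.11% and 11.0% over all genes, with a median log2 ratio of −0.10. The higher genes included INSL3, PDGFRA, PTCH1, GLI1, HHIP and CXCL12. PTCH1, GLI1 and HHIP are targets of the Hedgehog signal that Sertoli cells send to Leydig progenitors. PTCH1 stood at 15.9 and 56.8 CPM, 3.58-fold higher, below the 44.8 and 147 CPM of the other barcodes, where its ratio was 3.28. GLI1, a transcription factor of the pathway, stood at 1.64 CPM (6 UMIs) and 6.77 CPM (48 UMIs) in members, below the 8.10 and 22.1 CPM of the rest. HHIP, which binds the ligand, stood at 3.84 and 10.6 CPM, also below the rest.

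The lower genes of the list were HES1, PDE4D, IGF1, FST and AMHR2. HES1, a Notch target, stood at 219 and 75.4 CPM, 2.91-fold lower, with a ratio of 0.245 in the rest. DLK1 stood at 2870 and 3251 CPM. GNAS, the G-protein subunit through which LHCGR signals, stood at 8123 and 6553 CPM, above the 1712 and 1175 of the rest. IGF2, a fetal growth factor, was 1.47-fold lower, at 4653 and 3173 CPM, and TGFBR3, a co-receptor for inhibin, 1.65-fold lower, at 411 and 250 CPM.

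Among other named genes at least 4-fold above the rest, those with the highest ratios after INSL3 were DUSP2, PXMP2, PHLDA2, FDXR, MIF, EBPL, SOD1, MGST3, CITED1, GSTO1 and TECR. Their ratios ran from 2.01 for the phosphatase DUSP2 to 1.40 for TECR, a reductase of long fatty acid synthesis. No named gene of this kind came near the INSL3 value. Most of them had a higher ratio outside the members, namely DUSP2 with 2.03, EBPL with 2.20, GSTO1 with 2.101, MGST3 with 1.72, TECR with 1.64, FDXR with 1.57 and SOD1 with 1.51. The others had a lower one. CITED1 was 1.41-fold higher in members and had a ratio of 1.05 in the rest, and MIF, a cytokine, 1.47-fold against 1.09. PHLDA2 was 1.52-fold higher against 1.02, and PXMP2 1.56-fold against 0.533. The named genes with the lowest ratios were TAFA5, ALDH1L1, POR, CNTN4, ACLY, ACSS2, ENPP5, carboxypeptidase M, FNDC4, MACROD1, AIF1L and HMGCS1. TAFA5, a secreted peptide, was 2.56-fold lower, and CNTN4, a cell adhesion protein, stood at 758 and 331 CPM, 2.29-fold lower.

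Of the genes without that 4-fold lead over the rest, some had like ratios outside the members and some did not. OLFML3, a matrix protein, stood at 24.4 and 265 CPM in members, 10.9-fold higher, and was 4.50-fold higher elsewhere. DCN, COL1A1 and COL1A2, the stroma matrix genes, were 3.28-fold, 3.07-fold and 3.02-fold higher, and 5.61-fold, 3.54-fold and 3.31-fold higher elsewhere. WDR86, RPL22L1, EMID1, CYBA, CALD1, GSTA4, INAFM1 and UBB completed the higher group, with ratios from 7.25 to 2.75. Outside the members the ratio was 2.24 for WDR86, 1.36 for CYBA and 0.888 for EMID1, against 7.25, 3.03 and 3.15 in them. Of 38 stroma and matrix genes tested, 17 were at least 2-fold higher in members at 8 weeks and 3 lower, or 44.7% and 7.89% beside 6.11% and 11.0% over all genes, with a median log2 ratio of 0.76, against 0.92 in all other barcodes. The stroma marker sum went from 331 to 861 CPM. It shares DCN, COL1A1, COL3A1, LUM and POSTN with this list, so it is not a separate reading. The part of stroma RNA in these ratios was not tested.

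The lower group without a lead held S100G, CDH13, RPL37A, CDH18, HS3ST3A1, AKAP12, PLPP1, MDGA2, IDO1, CPE, HES1 and FAM117B. S100G, a calcium-binding protein, was 11.2-fold lower over the summed members and 19.6-fold lower with members weighted equally. It stood at 617 and 2.35 CPM in the other barcodes. CDH13, a cadherin, stood at 166 and 38.4 CPM in members, 4.34-fold lower, while its ratio in the rest was 2.88. CDH18, another cadherin, and MDGA2 had ratios of 0.256 and 0.320 in members and 0.970 and 1.10 in the rest. CPE, carboxypeptidase E, was likewise 2.96-fold lower in members with a ratio of 2.25 elsewhere. AKAP12, which anchors protein kinase A, stood at 647 and 178 CPM, 3.64-fold lower. IDO1 stood at 12545 and 4082 CPM in members, with a ratio of 0.325 both there and in the rest.

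Differences among the members were described by ordering those with at least 5000 UMIs, thinned to that depth, by CYP17A1 and cutting them into 3 groups of nearly equal size, low, middle and high. The groups held 47, 47 and 46 members at 4 weeks and 83, 82 and 82 at 8 weeks. CYP17A1 itself, used for the order, was 3.04-fold higher in the high than in the low group at 4 weeks and 9.01-fold higher at 8 weeks. Median depth before thinning was 24815, 25086 and 22551.5 UMIs at 4 weeks and 19506, 22277 and 35131.5 at 8 weeks.

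**Figure D3:**
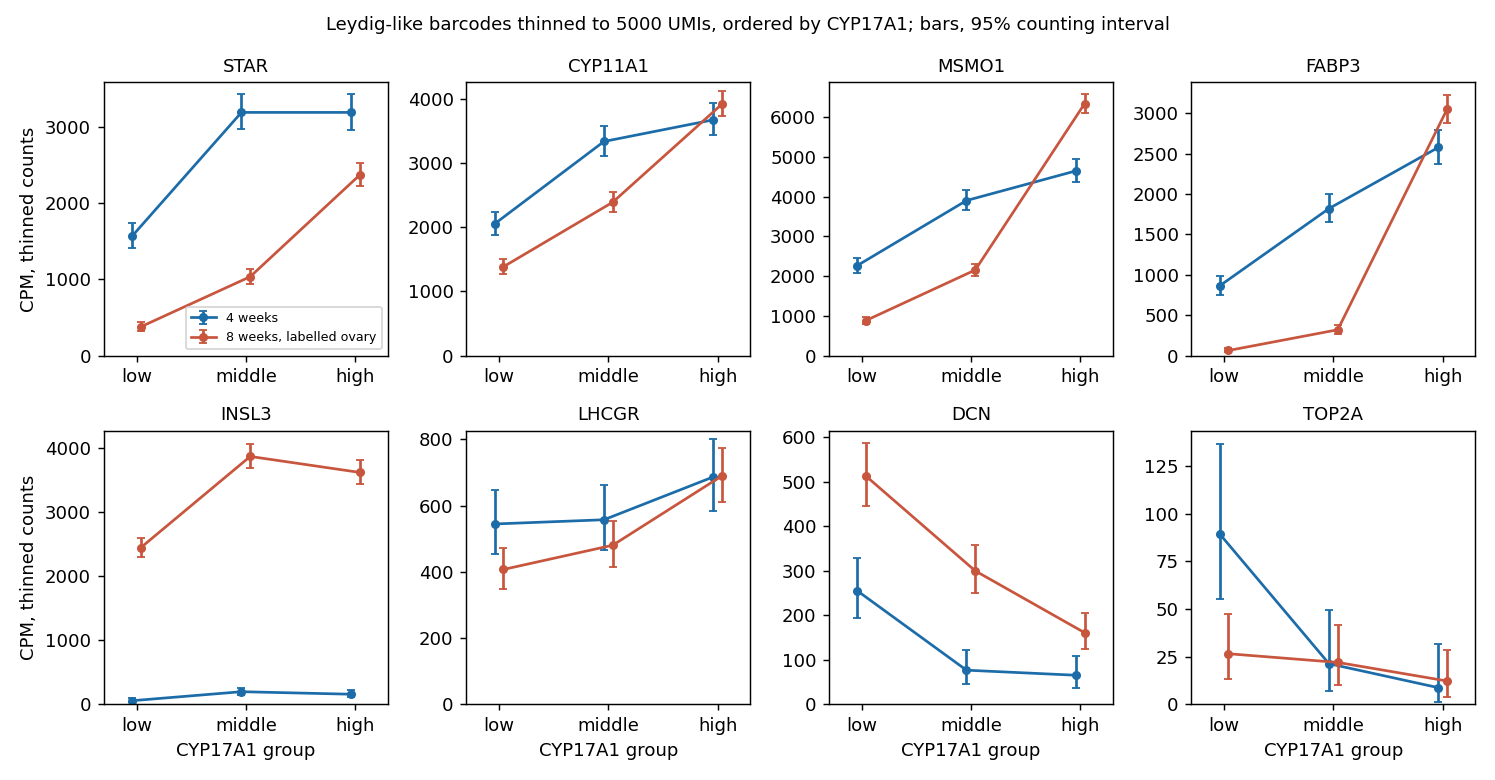
The horizontal axis is the CYP17A1 group (low, middle, high) of Leydig-like barcodes thinned to 5000 UMIs, and the vertical axis is the level of each gene in CPM with 95% counting intervals. STAR, CYP11A1, MSMO1 and FABP3 are higher in the high than in the low group at both stages. INSL3 is highest in the middle group at both stages, and DCN is highest in the low group.

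Sterol genes went with CYP17A1 at both stages. The list summed to 16409, 24230 and 27609 CPM from the low to the high group at 4 weeks, and to 8993, 14539 and 26654 CPM at 8 weeks. The high groups of the 2 stages were thus close, and the low groups apart. The groups were cut within each library, so they are not matched in CYP17A1 between the stages. Thinned members of the low group held 1 to 60 CYP17A1 UMIs at 4 weeks and 0 to 24 at 8 weeks. In the high groups the counts were 93 to 185 and 78 to 219. MSMO1 stood at 882, 2154 and 6339 CPM at 8 weeks, 7.19-fold from low to high, against 2.05-fold at 4 weeks.

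STAR and CYP11A1 followed the same order. STAR stood at 378, 1037 and 2371 CPM at 8 weeks and at 1570, 3196 and 3196 CPM at 4 weeks. CYP11A1 was 1.79-fold higher in the high group at 4 weeks and 2.83-fold at 8 weeks, reaching 3678 and 3924 CPM there. INHA stood at 386, 1015 and 1622 CPM at 8 weeks, a 4.21-fold span, and at 834, 1094 and 1165 CPM at 4 weeks. LHCGR differed less, by 1.26-fold and 1.69-fold.

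FABP3 had the widest span of the 15 leading genes at 8 weeks. At 8 weeks it stood at 62.7 CPM (40.9 to 91.8) in the low, 319 (267 to 379) in the middle and 3051 (2885 to 3225) in the high group, a 48.7-fold span. At 4 weeks it stood at 864, 1821 and 2578 CPM, a 2.98-fold span. An FABP3 UMI was found in 10.8% of the low and 86.6% of the high 8-week members. Over all members the sums were 1674 and 1509 CPM, and with members weighted equally 1820 and 1176 CPM.

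INSL3 was lowest in the low and highest in the middle group at both stages, so its order differed from that of CYP17A1. The intervals of the middle and high groups overlapped at both stages. At 8 weeks INSL3 stood at 2446 CPM (2298 to 2601) in the low, 3868 (3680 to 4063) in the middle and 3620 (3438 to 3808) in the high group. At 4 weeks the values were 55.3 (29.5 to 94.6), 196 (143 to 261) and 157 (110 to 217) CPM. Every 8-week group was thus above every 4-week group. Across the 247 thinned 8-week members the rank correlation with CYP17A1 was 0.06 for INSL3 but 0.86 for MSMO1, 0.79 for STAR, 0.76 for CYP11A1, 0.72 for FABP3 and 0.68 for INHA. Across the 140 at 4 weeks it was 0.56 for MSMO1, 0.51 for STAR and 0.53 for CYP11A1. These describe barcodes of 1 library, which share its depth and free RNA, and each gene's count competes with CYP17A1 within a fixed total.

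Matrix and cycling genes ran the other way. Stroma markers summed to 757, 145 and 100 CPM from low to high at 4 weeks and to 1137, 744 and 380 CPM at 8 weeks. The low group of the 4-week members also held more markers of other cells, with germ cell markers at 162 CPM against 13.0 in the high group, endothelial markers at 162 against 39.1 and erythroid markers at 234 against no UMI. At 8 weeks the same sums were 16.9 against 22.0, 21.7 against 14.6 and 4.82 against 14.6. The part of these other cells' RNA in the order of the groups was not tested.

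Few members carried cell cycle RNA. At least 5 UMIs of G2 and M phase genes were present in 12.1% of members at 4 weeks (7.24 to 18.7) and in 12.1% at 8 weeks (8.35 to 16.9), counted after thinning to 5000 UMIs. Among all other barcodes the shares were 44.3% and 49.8%, in Sertoli barcodes 43.9% and 56.0%, and in endothelium 40.0% and 45.3%. The CYP17A1-positive barcodes outside the rule held 29.6% (13.8 to 50.2) and 44.4% (36.3 to 52.7). The G2 and M genes summed to 983, 294 and 248 CPM over the low, middle and high groups at 4 weeks, and to 634, 473 and 298 at 8 weeks. Members low in CYP17A1 thus held the most cell cycle RNA.

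**Figure D4:**
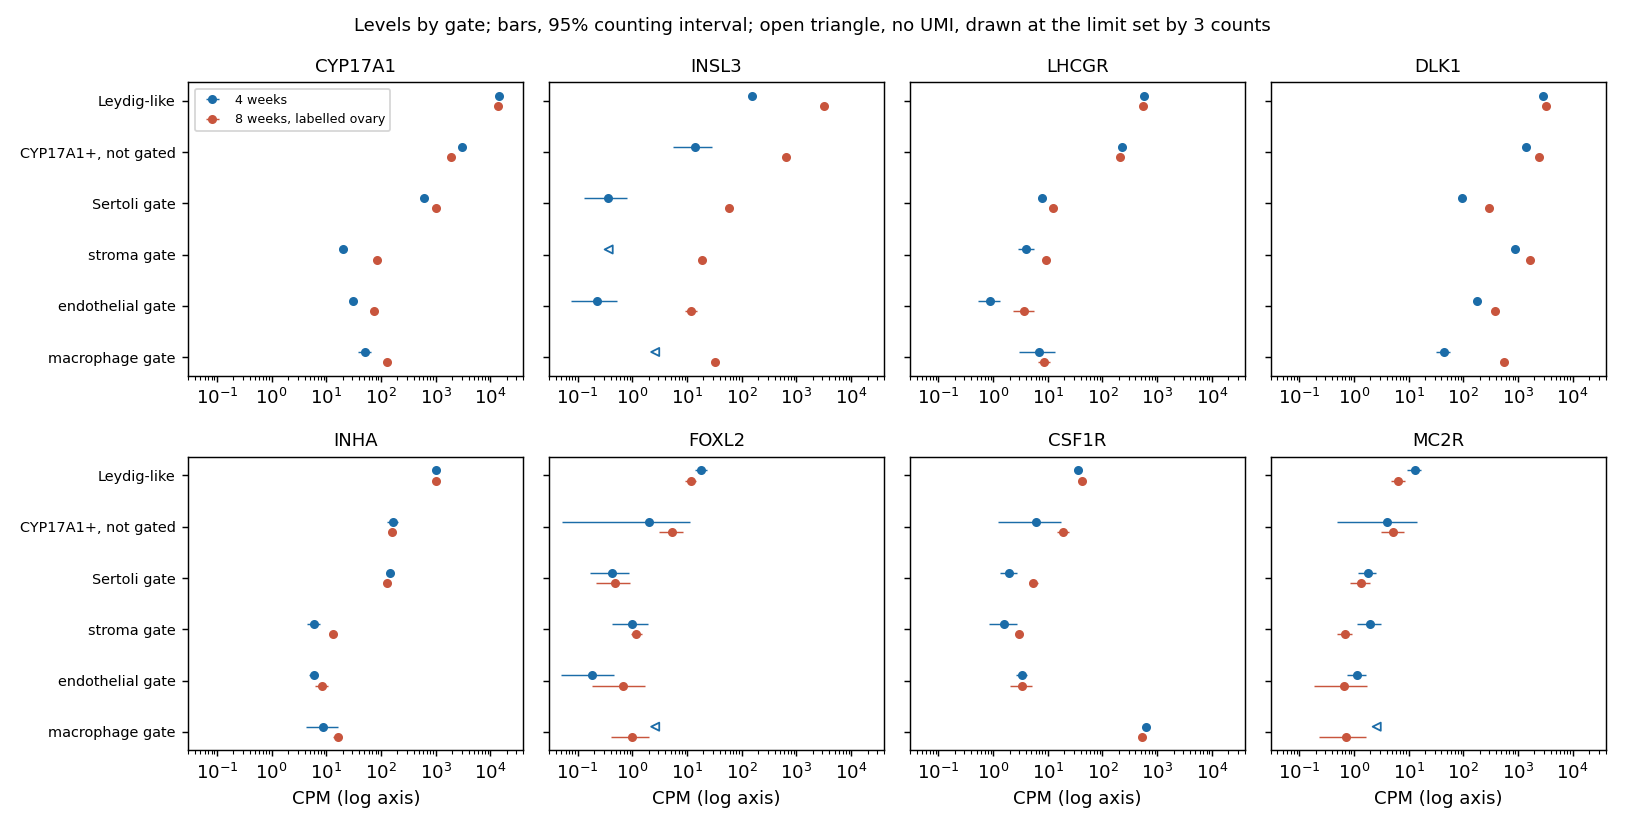
Rows are sets of barcodes, the horizontal log axis is the level in CPM, colours are the libraries and bars are 95% counting intervals. Leydig-like barcodes are highest for CYP17A1, INSL3, LHCGR, DLK1, INHA, FOXL2 and MC2R, and macrophages are highest for CSF1R.

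DLK1 was also found in stroma. Stroma barcodes (median depths 7898 and 6979 UMIs) held DLK1 at 878 CPM at 4 weeks and 1681 at 8 weeks. In Sertoli barcodes DLK1 stood at 94.5 and 292 CPM. LHCGR, at 4.06 and 9.11 CPM in stroma, was not shared.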

How the data were processed

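Single-cell RNA was measured in 2 libraries of fetal donkey, 1 per stage. The authors deposited raw UMI counts for each gene in each barcode. Cell Ranger is named in version 7.1.0 per the file headers, but in version 2.1.1 in the submitters' processing notes. The labels' protocols name a DNBelab C kit, whereas the barcodes have the 10x form. Genome build, annotation, strand and intron settings were not given in the sources used here. Of 38517 features, 16536 carried a symbol, and a RefSeq table (assembly EquAss-T2T_v2) named 768 locus identifiers, CYP17A1 and CYP11A1 among them.

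Groups were taken from the sample labels. Counts were summed over members and over comparison gates with Python 3.11.15, numpy 2.4.6, scipy 1.17.1 and pandas 2.3.3, and figures drawn with matplotlib 3.10.9. Log2 ratios and calls of 2-fold used 0.5 UMI added to each sum and genes with at least 10 UMIs. Other ratios and their intervals used the sums with nothing added. Both kinds of ratio were tested on simulated data. Thinning to 5000 UMIs used seed 1. Endothelial, macrophage, Sertoli and stroma barcodes were gated on 2 or 3 markers each. Named genes are those of the role lists, with levels of at least 100 CPM first, and the 15 leading genes. Up to 12 with the highest and lowest stage ratios were added, with and without a 4-fold lead over the rest. Features with only a locus identifier were passed over in these rankings. Members and lists were chosen with earlier results of these data known. The alternatives varied UMI minimum, gate, depth, weighting, scaling and gene minimum. Results for some genes are not reported here.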

Additional observations from a re-analysis of the deposited data

Results flagged for a closer look

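For AMHR2 and POSTN the members stood on opposite sides of the other barcodes at the 2 stages. AMHR2, the receptor for anti-Müllerian hormone, had a ratio of members to all other barcodes of 1.59 at 4 weeks and 0.607 at 8 weeks. POSTN, a matrix protein of stroma, had ratios of 1.75 and 0.164. With members weighted equally, AMHR2 stood at 8.03 and 2.96 CPM in them and POSTN at 32.5 and 5.75 CPM. AMHR2 was thus low at both stages, and POSTN at 8 weeks. With 1 library per stage the difference between the stages was not tested.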

How the results depend on the processing

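INSL3 stayed higher at 8 weeks under every alternative run on it. With STAR at 4 per 10000 and 3 UMIs the shares of members were 1.70% at 4 weeks and 1.50% at 8 weeks, the opposite order to the 1.79% and 2.02% of the rule. With the median ratio set to 0, 1411 genes were higher and 1254 lower, against 960 and 1730. The 8-week share was 2.35% with at least 2000 UMIs per barcode and 1.78% with FDX1 at 10 per 10000. With CYP17A1 in place of STAR and FDX1 the shares were 2.20% at 4 weeks and 3.53% at 8 weeks, and with barcodes thinned to 5000 UMIs first 2.24% and 2.65%. The INSL3 ratio was 16.6 with the CYP17A1 gate, 26.2 with members weighted equally and 23.0 with the median ratio set to 0, and with the deepest 6% of members left out it was 19.2. With at least 100 UMIs per gene 294 genes were higher and 442 lower, and with no minimum 2070 and 4169, as the number of genes tested changed. No paired analysis was possible because each stage is 1 library, and for the same reason no library could be left out. Depth limits genes at a few CPM, such as HSD17B3 with 12 UMIs at 4 weeks. Animals, fetal sex and batches cannot be separated from stage.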

Other observations

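FOXL2, a forkhead factor known from granulosa cells, stood at 18.1 CPM (14.0 to 23.0) in the 4-week and 11.7 (9.32 to 14.5) in the 8-week Leydig-like barcodes, and at 0.499 and 1.07 CPM in all others. Without thinning, 29.1% and 22.6% of members held a FOXL2 UMI, against 0.379% and 1.28% of endothelial barcodes. Thinned to 5000 UMIs the shares were 7.86% (3.99 to 13.6) and 3.64% (1.68 to 6.80) in members, against 0 of 905 at 4 weeks, which allows up to 0.331%, and 0 of 258 at 8 weeks, which allows up to 1.16%. The 5 granulosa markers summed, FOXL2 included, gave 31.8 and 17.3 CPM in members and 41.4 and 25.2 in the rest. CSF1R, the receptor for a macrophage growth factor, stood at 35.9 and 41.7 CPM in members and at 3.38 and 3.37 in endothelium, 1.98 and 5.45 in Sertoli and 625 and 537 in macrophage barcodes. All 6 macrophage markers summed gave 64.4 and 76.3 CPM in members. FOXL2 and CSF1R were singled out after their values were seen.

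Of 34 redox and mitochondrial genes tested, 2 were at least 2-fold higher in members at 8 weeks and 5 lower, or 5.88% and 14.7% beside 6.11% and 11.0% over all genes, with a median log2 ratio of −0.15. GSTM3, a glutathione transferase, stood at 1312 and 3209 CPM, 2.45-fold higher (2.37 to 2.52), with a ratio of 2.56 in the rest, and GSTA4 at 163 and 457 CPM, against a ratio of 2.30 in the rest. SOD1, the cytosolic superoxide dismutase, stood at 1957 and 2813 CPM, above the 421 and 634 of the rest. Of 20 glycolysis and hypoxia genes, 2 were at least 2-fold higher and 2 lower, with a median log2 ratio of 0.33. Those are 10% and 10%, beside 6.11% and 11.0% over all genes. GAPDH stood at 1051 and 2301 CPM, 2.19-fold higher, with a ratio of 2.29 in the rest. None of the 19 dissociation stress genes was past 2-fold either way, beside 6.11% and 11.0% over all genes, with a median log2 ratio of 0.21.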
